A study of Mus musculus with 6 samples.

Results

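Fasn, which encodes fatty acid synthase, was examined together with the genes of the kinase and the transcription factors that act at its promoter after insulin. These 6 genes, of the 54532 in the count table, were taken by name: Fasn, the USF genes Usf1 and Usf2, and the DNA-PK genes Prkdc, Xrcc5 and Xrcc6. The rule for the set uses gene names and no threshold on a measured value. RNA-seq was performed on the livers of 6 male C57BL/6J mice kept on a high-fat diet for 6 weeks from 8 weeks of age, by which they had become insulin resistant (IR). After a 16 h fast, 3 of them received insulin intraperitoneally at 0.75 units per kg body weight (IR insulin) and 3 received its carrier, bovine serum albumin (IR vehicle), and the liver was collected 6 h later. Each library came from 1 mouse. All 6 mice shared the diet, strain and fast, the labels name no genetic change, and lean mice or other times are not part of the comparison.

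Fatty acid synthase builds palmitate from acetyl-CoA and malonyl-CoA, and its abundance in liver is set largely by transcription. Upstream stimulatory factors 1 and 2, the products of Usf1 and Usf2, bind E-box sequences as dimers and occupy the Fasn promoter in fasted as well as fed animals. Feeding or insulin activates protein phosphatase 1, which dephosphorylates DNA-dependent protein kinase (DNA-PK), and DNA-PK then phosphorylates USF1, which recruits an acetyltransferase and chromatin remodellers to the promoter. DNA-PK is better known for the repair of broken DNA by end joining: Prkdc encodes its catalytic subunit, and Xrcc6 and Xrcc5 encode Ku70 and Ku80, the subunits that hold it on a DNA end. All of these steps act on proteins, whereas the values given here are transcript levels.

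The promoter of Fasn is shown because USF acts there, but which bases USF binds was not determined here. The 250 bases upstream of the RefSeq start of Fasn (GRCm38.p6, chr11:120824548-120824797, minus strand) are printed 5′ to 3′, with the E-box and the NF-Y boxes in capitals.
Fasn: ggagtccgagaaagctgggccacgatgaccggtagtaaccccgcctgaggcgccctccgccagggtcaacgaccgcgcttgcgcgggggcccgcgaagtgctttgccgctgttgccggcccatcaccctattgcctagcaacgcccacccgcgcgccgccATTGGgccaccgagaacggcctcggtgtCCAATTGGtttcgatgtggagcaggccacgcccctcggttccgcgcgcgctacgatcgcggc
Positions are counted upstream from the start, with −1 as the base before it. Both strands were searched for CANNTG (any E-box), for its forms CACGTG (the palindrome that USF prefers) and CATGTG (a variant of it), and for CCAAT (the NF-Y box), GGGCGG (an Sp1 box) and TCACNCCAC (a sterol element). The Fasn window held 1 E-box, CAATTG, from −61 to −56, which lies within overlapping CCAAT boxes on opposite strands that begin at −62 and −59. A further CCAAT box on the minus strand begins at −90, and the window held no other motif of those searched. CAATTG is thus neither CACGTG nor CATGTG, and its capitals do not mark it as the site of USF. Bases outside this window were not searched, so an element missing from it is not shown to be missing from the promoter. Of 32851 promoter windows of the same length, 66.2% held an E-box of any centre, 33.9% a CCAAT box, 32.7% a GGGCGG and 1.05% a TCACNCCAC.

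Among the regulators, windows of 26 bases around an E-box are shown for Xrcc5 and Xrcc6, the genes of the set other than Fasn whose promoter window held one. They lie at chr1:72307213-72307238 (Xrcc5) and chr15:82016211-82016236 (Xrcc6), both on the plus strand, with the E-box in capitals.
Xrcc5: atgtgtgggaCACGTGgagatcagag
Xrcc6: cactttcacgCATGTGcgttcggtgc
The Xrcc5 site, from −198, is the palindrome CACGTG, which 6.02% of all windows held. A further E-box of Xrcc5, CAAATG, starts at −106. The Xrcc6 site, CATGTG from −148, was present in 12.3% of all windows, and the same promoter held 3 GGGCGG boxes, at −169, −119 and −100. RefSeq listed 2 promoters for Usf1, neither with an E-box and each with 1 GGGCGG, and the promoters of Prkdc and Usf2 were not analysed here. A match to letters is not a bound site, and no binding was measured in these mice.

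In normalized counts (CPM), reads are scaled to libraries of one common size. Reads per library came to between 18449986 and 21827619, and 13377 genes had enough reads for the test, all 6 of the set among them. The hepatocyte genes Alb, Ttr, Apoa1, Hnf4a and Cps1 were present in every library, as the liver label requires. Their summed level was 63550, 152117 and 97069 CPM in vehicle replicates 1, 2 and 3 and from 52388 to 67694 CPM with insulin. The part of this spread in the results was not tested. Vehicle replicate 2 stood apart from the other libraries: it held the lowest value of the 6 for 37.4% of all genes and the highest for 35.8%, and its deviation from the others followed the GC content of the transcripts. The members' changes are therefore given with and without it, as are those of most listed genes that are named. Some listed genes that are not named changed sign without it. The summed levels of all 10 cell type and cell cycle marker lists overlapped between the groups. The erythroid list was the one in which most genes met the study's criteria for a changed gene, 4 of 5, with sums from 413 to 1587 CPM with vehicle and from 312 to 478 CPM with insulin, highest in vehicle replicate 2. Its part in the results was not tested. Because whole tissue was sequenced, fewer cells of a type and less RNA per cell cannot be told apart. Nothing in the labels says whether libraries were prepared together, so p-values measure the spread between these mice and whatever handling they had.

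Of the 6 genes, Fasn alone met the study's criteria for a changed gene, which ask for a log2 fold change of 0.35 or more in size together with an unadjusted p under 0.05. It rose, and none of the 5 regulator genes met them in either direction. Of all genes tested, 2.86% met the criteria in either direction. Once p was adjusted over all genes (quasi-likelihood test of edgeR, Benjamini-Hochberg method), 0 members and 0 genes of the table were under 0.05, against 383 genes under that level before adjustment. Fasn was likewise the 1 gene of the 6 whose groups did not overlap, which held for 12.3% of all genes. The estimate was above 0 for Fasn and Usf1 and below 0 for the other 4 genes, where 48.6% of all genes had an estimate above 0.

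**Figure D1:**
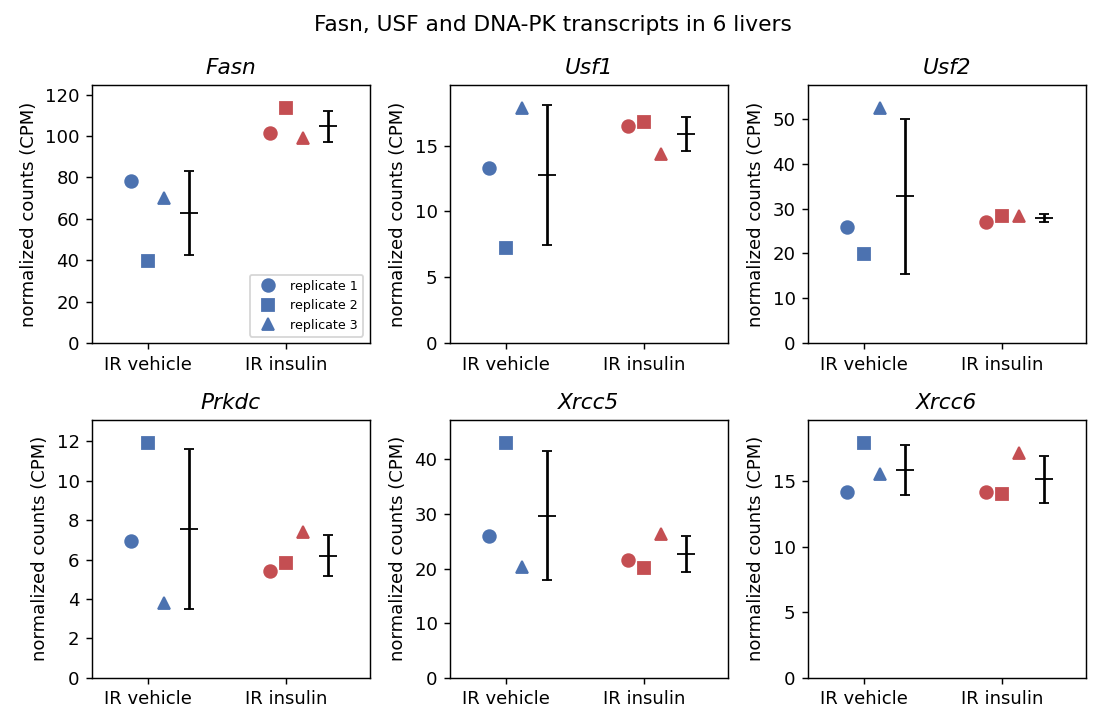
Normalized counts (CPM, linear axis from 0) of the 6 genes in each liver. Blue marks are IR vehicle and red marks IR insulin, the shape gives the replicate number, and the black bar gives the mean with its SD (n = 3). Fasn is the panel in which all red marks lie above all blue ones, and vehicle replicate 2 (blue square) is the lowest mark for Fasn, Usf1 and Usf2 and the highest for Prkdc, Xrcc5 and Xrcc6.

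Fasn (ENSMUSG00000025153) lies on chromosome 11 from 120805846 to 120824547 on the minus strand of GRCm38, with 43 exons in its longest transcript of 10050 bases, and no annotated gene overlaps it. The 3 vehicle livers gave 1477, 645 and 1472 reads, or 78.1, 39.6 and 70.2 CPM. The 3 insulin livers gave 2255, 2618 and 2152 reads, or 101.5, 113.3 and 99.3 CPM. Every insulin liver was above every vehicle liver, and the lowest vehicle value, that of replicate 2, was well under the other two.

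The mean was 62.6 ± 20.3 CPM (SD, n = 3) with vehicle and 105 ± 7.56 CPM (SD, n = 3) with insulin. The log2 fold change was 0.74 ± 0.29 (SE), that is 1.67-fold with a 95% interval from 1.06 to 2.65 and an adjusted p of 0.852 (edgeR). Without vehicle replicate 2 it was 0.50 and met the criteria, so the direction and the call did not rest on that library, while the size was smaller. When the counts were given an offset for GC content, it was 0.36, and the criteria were no longer met because the unadjusted p passed 0.05. The call was also lost when any 1 of the 3 insulin livers was left out, with estimates between 0.68 and 0.79.

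Adipose tissue also makes fatty acid synthase, so adipocyte genes are given beside Fasn. The summed level of Adipoq, Plin1, Lep, Retn and Cfd ranged from 0.191 to 63.6 CPM with vehicle and from 25 to 154 CPM with insulin, overlapping between the groups. Lep was at 0 in all 6 libraries, Adipoq, Plin1 and Retn were at 0 in some, and only 1 of the 5 genes had enough reads for the test, in which it did not meet the criteria. The highest sums, 154 and 96.7 CPM, were those of insulin replicates 1 and 2, the livers with the highest Fasn levels (101.5 and 113.3 CPM). In insulin replicate 3 the sum of 25 CPM was below those of vehicle replicates 1 and 2 (63.6 and 26.6 CPM). Its Fasn level, 99.3 CPM, was above that of every vehicle liver. The lowest sum, 0.191 CPM, was that of vehicle replicate 3, where Fasn stood at 70.2 CPM. The part of adipocyte RNA in the Fasn difference was not tested.

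Usf1 encodes the factor that DNA-PK phosphorylates at the Fasn promoter. It lies on chromosome 1 from 171411313 to 171419142 (plus strand, ENSMUSG00000026641). With vehicle the reads numbered 252, 117 and 374 (CPM 13.3, 7.18 and 17.8), and with insulin 366, 388 and 312 (CPM 16.5, 16.8 and 14.4). The vehicle livers held both the lowest and the highest value, replicates 2 and 3, and enclosed all 3 insulin livers. Means were 12.8 ± 5.35 CPM with vehicle and 15.9 ± 1.31 CPM with insulin (SD, n = 3), with a log2 fold change of 0.31 and a 95% interval from −0.46 to 1.09 (adjusted p = 0.854, edgeR). Leaving out vehicle replicate 2 gave 0.033, and leaving out vehicle replicate 3 gave 0.63. An increase of the size estimated for Fasn lies inside the interval, so the data do not separate no change in Usf1 from such an increase. The 3′ end of Usf1 shares bases with Tstd1 on the same strand, whose reads were 257, 134 and 316 with vehicle and 228, 244 and 222 with insulin. In reads, both genes were lowest in vehicle replicate 2, while Tstd1 was highest in vehicle replicate 3 and Usf1 in insulin replicate 2. How reads in the shared bases were assigned is not given in the sources used here.

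Usf2 encodes the usual dimer partner of USF1. It lies on chromosome 7 from 30945248 to 30956803 (minus strand, ENSMUSG00000058239). The vehicle livers had 491, 323 and 1099 reads, or 26.0, 19.8 and 52.4 CPM, and the insulin livers had 598, 654 and 616 reads, or 26.9, 28.3 and 28.4 CPM. The insulin livers were nearly alike, with a coefficient of variation of 2.99%, against 52.9% among the vehicle livers, where replicate 3 was 2.64-fold above replicate 2. The log2 fold change was −0.23, with a 95% interval from −1.06 to 0.60 (adjusted p = 0.875, edgeR).

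Which vehicle library was left out decided the sign of the Usf2 estimate: it was 0.28 without replicate 3 and −0.49 without replicate 2. With the GC offset Usf2 met the criteria in the other direction from Fasn, at −0.57 ± 0.23 (SE) and an adjusted p of 0.951 (edgeR), and 2.29% of all genes were called lower in that fit. The 2 noncoding genes that overlap Usf2 on the opposite strand, Gm44662 and Gm17077, had no reads in any library.

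Prkdc, the catalytic subunit of DNA-PK, lies on chromosome 16 from 15637866 to 15842235 (plus strand, ENSMUSG00000022672) in 86 exons, and was the member with the fewest reads. There were 131, 194 and 80 reads with vehicle (CPM 6.93, 11.9 and 3.82) and 120, 134 and 160 with insulin (CPM 5.40, 5.80 and 7.38). As for Usf1, both extremes were vehicle livers, but in the reverse order, with replicate 2 highest and replicate 3 lowest. The lowest count carries a counting error of 11.2%, small beside the coefficient of variation of 54.1% among the vehicle livers.

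Mean Prkdc levels were 7.55 ± 4.08 CPM with vehicle and 6.19 ± 1.05 CPM with insulin (SD, n = 3). The log2 fold change was −0.28, with a 95% interval from −1.24 to 0.68 (adjusted p = 0.872, edgeR), the widest of the 6 genes. Leaving out vehicle replicate 2 gave 0.21, leaving out replicate 3 gave −0.60 and the GC offset gave 0.026, so no direction could be given for Prkdc.

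Xrcc5, which encodes Ku80, lies on chromosome 1 from 72307421 to 72394952 (plus strand, ENSMUSG00000026187), and no annotated gene overlaps it. Its reads were 490, 700 and 424 with vehicle (CPM 25.9, 43.0 and 20.2) and 478, 465 and 572 with insulin (CPM 21.5, 20.1 and 26.4). Vehicle replicate 2 stood above the other 5 livers, which lay within 20.1 to 26.4 CPM whatever their group. The log2 fold change of −0.39 (95% interval −1.11 to 0.33, adjusted p = 0.852, edgeR) was −0.021 without that library.

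Xrcc6, which encodes Ku70, lies on chromosome 15 from 81987835 to 82040085 (plus strand, ENSMUSG00000022471). It had 268, 292 and 326 reads with vehicle (CPM 14.2, 17.9 and 15.5) and 315, 325 and 373 with insulin (CPM 14.2, 14.1 and 17.2). This was the steadiest of the 6 genes, since its highest and lowest livers differed by 1.27-fold, where the other members differed by between 2.13-fold and 3.12-fold. The log2 fold change was −0.067 with the narrowest interval of the 6 genes, from −0.58 to 0.44 (adjusted p = 0.939, edgeR). Its sign turned without vehicle replicate 2 (0.032) and when libraries were scaled to their totals alone (0.13). Some exons of Xrcc6 overlap those of Desi1 on the opposite strand, which had between 536 and 761 reads, and whether counting used strand is not given in the sources used here.

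**Figure D2:**
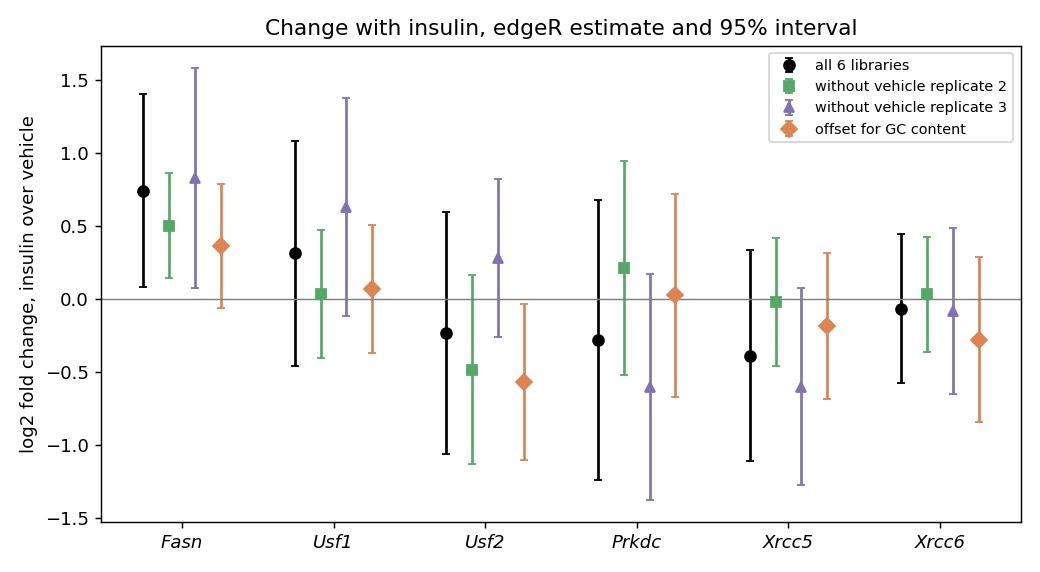
Log2 fold change of each gene, insulin over vehicle, with its 95% interval from edgeR: all 6 libraries (black), vehicle replicate 2 left out (green), vehicle replicate 3 left out (purple) and an offset for GC content (orange). Fasn stays above 0 in each, between 0.36 and 0.83, with an interval that includes 0 under the GC offset (−0.06 to 0.79), whereas the Usf2, Prkdc and Xrcc6 estimates lie on both sides of 0.

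How the 2 vehicle libraries that held the extremes behaved was read against base composition. In vehicle replicate 2 the GC-rich transcripts of the set, Fasn (57.9% GC), Usf2 (57.7%) and Usf1 (56.0%), deviated from the median of the other 5 livers by −1.32, −0.51 and −1.19 on the log2 scale. The transcripts of lower GC content, Prkdc (43.3%), Xrcc5 (45.6%) and Xrcc6 (53.2%), deviated by 1.03, 0.99 and 0.34. In the same library the median gene of like GC content was −1.19 for Fasn and Usf2, −0.86 for Usf1, −0.52 for Xrcc6, 0.59 for Prkdc and 0.48 for Xrcc5. Fasn and the USF genes were thus below 0 in this library and the DNA-PK genes above it. All members but Xrcc6 lay on the same side of 0 as the median gene of like GC content. Xrcc6 lay on the other side of 0 from the median of the genes of its own composition. Xrcc6 still lay inside the 10th to 90th percentiles of those genes, −1.92 to 0.37.

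Vehicle replicate 3 showed another order. There Usf2 was 0.96 above the median of the other livers and Prkdc deviated by −0.84, where the 10th to 90th percentiles of genes of like GC content ran from −0.73 to 0.83 for Usf2 and from −0.99 to 0.58 for Prkdc. Usf2 thus lay outside its range and Prkdc inside it. Vehicle replicate 2 or 3 held the highest or the lowest value for all 6 members, as it did for 92.2% of all genes, so this is common to the table. The part of base composition in the differences between the groups was not tested beyond the offset.

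**Figure D3:**
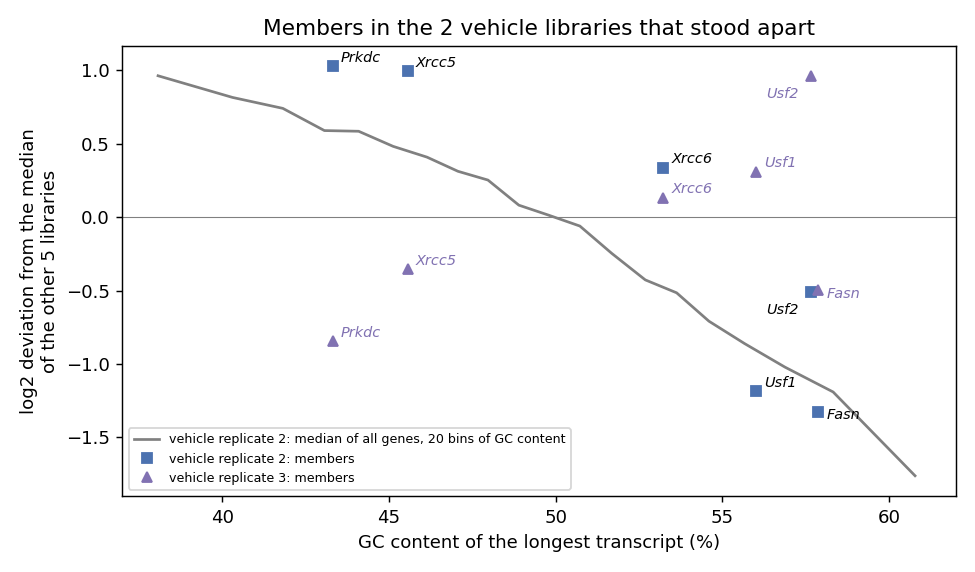
Log2 deviation of each member from the median of the other 5 libraries, against the GC content of its longest transcript, in vehicle replicate 2 (blue squares) and vehicle replicate 3 (purple triangles). The grey line is the median of all genes in vehicle replicate 2 in 20 bins of GC content, falling from left to right, and Fasn (−1.32) and Usf1 (−1.19) lie near it whereas Xrcc6 (0.34) lies above it.

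Ratios of counts within a library need no scaling between libraries, and they were used to compare Fasn directly with each regulator. They do not cancel a deviation that follows GC content, as seen in vehicle replicate 2. For each read of Usf2 there were 3.01, 2.0 and 1.34 reads of Fasn with vehicle and 3.77, 4.0 and 3.49 with insulin. For each read of Usf1 there were 5.86, 5.51 and 3.94 of Fasn with vehicle and 6.16, 6.75 and 6.90 with insulin. Against both USF genes every insulin liver exceeded every vehicle liver, although for Usf1 the nearest livers, 5.86 and 6.16, were close. Fasn, whose own groups did not overlap, is the numerator of every Fasn ratio, so a lack of overlap is not a separate result about each regulator. The share of all genes whose ratio to Fasn lacked overlap was not computed.

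The Fasn to Xrcc5 ratio was 3.01, 0.921 and 3.47 with vehicle and 4.72, 5.63 and 3.76 with insulin. The Fasn to Xrcc6 ratio was 5.51, 2.21 and 4.52 with vehicle and 7.16, 8.06 and 5.77 with insulin. Fasn to Prkdc was 11.3, 3.32 and 18.4 with vehicle and 18.8, 19.5 and 13.5 with insulin, and this was the Fasn ratio whose groups overlapped.

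The mean log2 ratio was higher with insulin by 0.90 for Usf2, 0.39 for Usf1, 1.12 for Xrcc5, 0.87 for Xrcc6 and 0.95 for Prkdc. With 3 livers against 3 the exact two-sided permutation test cannot give less than p = 0.1, which it gave for the ratios to Usf2, Usf1, Xrcc5 and Xrcc6 (adjusted p = 0.225 over 9 ratios), with p = 0.2 for Prkdc. The design therefore cannot place these differences past the 0.05 threshold. Leaving out any 1 library kept the difference above 0 for all 5 ratios. The lowest values were 0.52 for Xrcc5, 0.47 for Xrcc6 and 0.24 for Prkdc, all without vehicle replicate 2. For Usf2 and Usf1 they were 0.61 and 0.21, without vehicle replicate 3. The part of GC content in these differences was not tested.

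Within the regulators, ratios overlapped between the groups. Reads of Usf1 for each read of Usf2 were 0.513, 0.362 and 0.340 with vehicle and 0.612, 0.593 and 0.507 with insulin, a difference of 0.51 on the log2 scale (exact permutation p = 0.2). The ratio of the Ku subunits, Xrcc5 to Xrcc6, was 1.83, 2.40 and 1.30 with vehicle and 1.52, 1.43 and 1.53 with insulin (difference −0.26, exact permutation p = 0.4). Prkdc reads stayed between 0.189 and 0.288 for each read of Xrcc5 in all 6 livers, and its ratios to Xrcc5 and Xrcc6 differed between the groups by 0.18 and −0.081 (exact permutation p = 0.5 and 0.9). With 1 library left out, the difference ranged from 0.40 to 0.70 for Usf1 to Usf2, from −0.49 to −0.046 for Xrcc5 to Xrcc6, from 0.0016 to 0.28 for Prkdc to Xrcc5 and from −0.49 to 0.23 for Prkdc to Xrcc6, which changed sign without vehicle replicate 1 or 2.

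**Figure D4:**
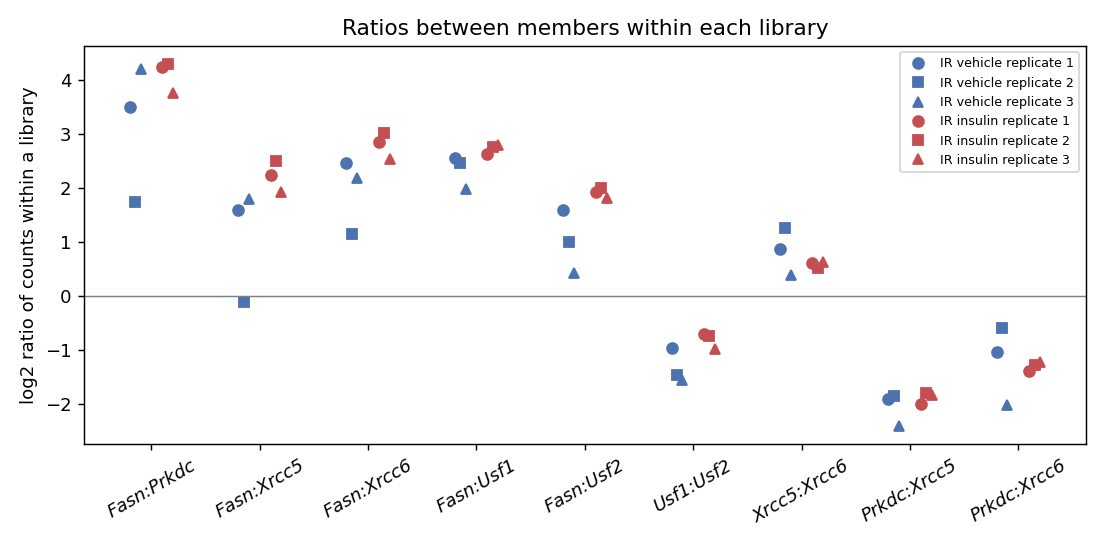
Log2 ratio of counts between members within each library, with vehicle livers in blue and insulin livers in red and the shape giving the replicate number. The red marks lie above all blue marks for the ratios of Fasn to Xrcc5, Xrcc6, Usf1 and Usf2, and the groups overlap for the other 5 ratios. The ratios without overlap all have Fasn, whose own groups did not overlap, as numerator.

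Levels of different genes were compared as CPM per kilobase of the longest transcript. Over the 6 livers Usf2 stood highest at 12.5 ± 4.66 (SD, n = 6), then Xrcc5 at 10.3 ± 3.39, Fasn at 8.33 ± 2.67, Usf1 at 6.62 ± 1.79, Xrcc6 at 4.71 ± 0.514 and Prkdc at 0.543 ± 0.219. Prkdc was below Xrcc6, its neighbour in this order, in 6 of 6 livers. The order of the other neighbours did not hold in every liver: Usf2 was above Xrcc5 in 5, Xrcc5 above Fasn in 4, Fasn above Usf1 in 5 and Usf1 above Xrcc6 in 5. In the insulin livers alone the mean of Fasn, 10.4, was above that of Xrcc5, 8.88. The order also depends on which length is used. With the mean length of the annotated transcripts the order was Usf2, Fasn, Xrcc6, Usf1, Xrcc5 and Prkdc, so the levels of the Ku subunits relative to each other cannot be read from these counts.

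Across the 6 livers, log2 CPM of Fasn had a Pearson r of 0.85 with Usf1 (Spearman rho 0.43), 0.26 with Usf2 (rho 0.26), −0.57 with Prkdc (rho −0.31), −0.82 with Xrcc5 (rho −0.60) and −0.65 with Xrcc6 (rho −0.71). None of the 5 relations passed the exact permutation test, with p between 0.0736 and 0.542 and adjusted p between 0.208 and 0.542. All rest on the livers with the highest and the lowest Fasn level, insulin replicate 2 and vehicle replicate 2. Without them r became −0.20 for Usf1, −0.70 for Usf2, 0.56 for Prkdc, 0.32 for Xrcc5 and 0.17 for Xrcc6 (n = 4). With libraries scaled to their totals alone, r was 0.91 for Usf1, 0.51 for Usf2, −0.35 for Prkdc, −0.62 for Xrcc5 and 0.31 for Xrcc6, the last with its sign turned. Groups of 3 livers are too small for a value within a group.

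Of 10662 genes with a mean of at least 50 reads, those most like Fasn over the 6 livers were Traf2 (r = 0.997), Zfp282 (0.996), Fam160b2 (0.994), Snx11 (0.992) and Ddx51 (0.991). As many as 789 genes had an r above 0.9 with Fasn. The genes most like the USF members were Foxj2 and Gatc for Usf1 and Tatdn3 and Med16 for Usf2. Those most like the DNA-PK members were Gnai1 and Eif2b4 for Prkdc, Slc17a3 and Alkbh8 for Xrcc5, and Brca1 and Dock9 for Xrcc6. An r above 0.9 was reached by 1605 genes for Usf1 and by 90 for Xrcc6. All these values share the same 6 livers, among which vehicle replicate 2 stood apart.

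The wider promoter pathway was followed in 6 gene lists, of which the 3 genes with the smallest p in each are named. The cofactors of USF1 at the Fasn promoter, which comprise the acetyltransferase Kat2b, the deacetylase Hdac9, Parp1, Top2b, SWI/SNF remodeller subunits and the Mediator subunit Med17, had 1 of 12 genes past the criteria, with 9 estimates above 0 and a median log2 fold change of 0.16. All genes tested had a median of −0.017. That gene was Arid1a, a DNA-binding subunit of the SWI/SNF remodeller. It measured 19.99, 19.3 and 20.2 in the vehicle livers and 33.5, 25.3 and 35.3 in the insulin livers (CPM). Its groups did not overlap, as for 12.3% of all genes. The log2 fold change of Arid1a was 0.66 ± 0.22 (SE), with an adjusted p of 0.852 (edgeR), and 0.65 without vehicle replicate 2. The call was lost with the GC offset (0.23), also beside the replicate block, and without insulin replicate 1 or 3. Kat2b (−0.54, 95% interval −1.17 to 0.10) and Smarcc2 (0.50, −0.12 to 1.12) did not meet the criteria, and without vehicle replicate 2 they were −0.28 and 0.28. Kat2b met them without vehicle replicate 1, a fit in which 9.81% of all genes did.

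Upstream of DNA-PK, in the list of protein phosphatase 1 subunits and insulin signalling kinases with Wdr6, which the study had chosen on these samples, 1 of 11 genes met the criteria. This was Wdr6 itself, at 0.76 ± 0.29 (SE, adjusted p = 0.852, edgeR), which is not independent evidence of its direction. Its CPM were 7.30, 4.97 and 7.06 in the vehicle livers and 9.37, 9.22 and 14.2 in the insulin livers, and the call was lost with the GC offset, also beside the replicate block, with voom weights and without insulin replicate 3. Ppp1cb, which encodes a catalytic subunit of the phosphatase, had an estimate of −0.70 (95% interval −1.48 to 0.07) and Akt1 one of 0.41 (−0.33 to 1.15), and the list's median was −0.044. Without vehicle replicate 2, where Ppp1cb stood at 309 CPM against 139 and 148 in the other vehicle livers, these estimates were −0.23 and 0.14, and with the GC offset they were −0.32 and −0.057. The groups of Ppp1cb did not overlap, as for 12.3% of all genes. Ppp1cb met the criteria without vehicle replicate 1 or 3, fits in which 9.81% and 6.51% of all genes did.

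Among the other factors that bind the Fasn promoter, none of 12 met the criteria by edgeR, and the median was −0.011. The smallest p values belonged to Thrb (−0.74), Nfya (0.49) and Sp3 (−0.52), which without vehicle replicate 2 were −0.30, 0.45 and −0.20. The thyroid hormone receptor gene Thrb met the criteria with DESeq2, with RLE scaling, without the filter, with the GC offset (−0.48) and without vehicle replicate 1 or 3. In those fits between 2.38% and 9.81% of all genes did. Nfya met them with library totals alone (2.55% of all genes) and without vehicle replicate 1 (9.81%), and Sp3 without vehicle replicate 3 (6.51%). The sterol regulatory gene Srebf1 had an estimate of 0.012 (95% interval −0.69 to 0.71), which was −0.24 without vehicle replicate 2, 0.28 without replicate 3 and −0.38 with the GC offset. For Mlxipl, which encodes the carbohydrate response factor ChREBP, it was −0.014 (−1.03 to 1.01), and −0.40 and 0.44 without those libraries. For Nr1h3, which encodes liver X receptor alpha, it was −0.0069 (−0.51 to 0.50), and −0.46 with the GC offset. E-box binding factors of the family of USF also had none of 13 tested past the criteria by edgeR (median 0.11), led by Mxd4 (0.51), Tfe3 (0.41) and Max (0.34), which were 0.24, 0.19 and 0.21 without vehicle replicate 2. Mxd3 had too few reads for the test.

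The partners of DNA-PK in end joining had none of 10 past the criteria by edgeR, with a median of 0.12. Polm (0.85), Dntt (0.57) and Poll (0.43), which encode DNA polymerases of the same family, had the smallest p values. Without vehicle replicate 2 they were 0.44, 0.68 and 0.042. Polm stood at between 0.614 and 4.03 CPM and Dntt at between 1.14 and 4.01 CPM, so few reads lie behind these estimates. Polm met the criteria without vehicle replicate 1, a fit in which 9.81% of all genes did. The lipogenic enzymes other than Fasn had none of 15 tested past the criteria by edgeR, and their median was −0.050. Acacb, which makes the malonyl-CoA that restrains fatty acid oxidation, had an estimate of 0.77 (95% interval −0.05 to 1.59), the pyruvate kinase gene Pklr one of 0.60 (−0.07 to 1.27) and the elongase gene Elovl6 one of −0.40 (−0.92 to 0.12). Without vehicle replicate 2 they were 0.47, 0.40 and −0.34. Acacb met the criteria in that fit, without vehicle replicate 3, without the filter, with the GC offset (0.51), with the replicate block and with voom. In those fits between 1.59% and 6.51% of all genes did. Elovl6 met them without vehicle replicate 1, a fit in which 9.81% of all genes did. Pnpla3 had too few reads for the test. Over the 6 lists together, 2 of 73 genes tested met the criteria by edgeR, or 2.74%, against the background of 2.86%. These were Arid1a and Wdr6. Because the study had chosen Wdr6 on these samples, the share that includes it is not an independent measure beside the background.

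**Figure D5:**
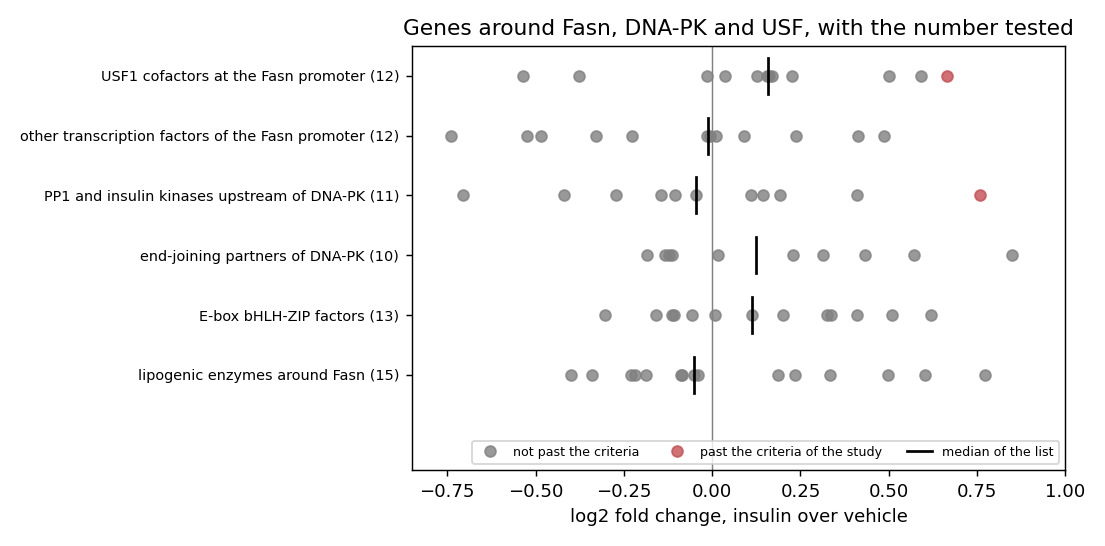
Log2 fold change, insulin over vehicle, of each gene tested in 6 lists around the Fasn promoter, with the number tested in brackets and a black line at the median. Red points met the criteria of the study: Arid1a (0.66) among the cofactors and Wdr6 (0.76) among the genes upstream of DNA-PK.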

How the data were processed

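The authors deposited whole-number read counts per gene for 6 libraries in 1 table, neither normalized nor pooled. Per the submitters' processing notes and the study's methods, reads were aligned with Bowtie2 (version 2.2.3) to mm10. The counting program, annotation release and use of strand are not given in the sources used here. Of the 54532 gene IDs, 54495 matched GENCODE vM21 (GRCm38), which gave positions, lengths and GC content.

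Genes were filtered with filterByExpr (minimum count 10), scaled by TMM and tested with the edgeR 4.0.16 quasi-likelihood test in R 4.3.3 over all 13377 genes kept, with Benjamini-Hochberg adjustment over all of them. CPM are counts scaled to a common TMM-adjusted library size, so 50 reads equal about 2.44 CPM. Intervals are 95%. Ratios and correlations used exact permutation tests (scipy 1.17.1), two-sided. DESeq2 1.42.0, limma 3.58.1 (voom with quality weights), other scalings, no filter, a loess offset for GC content (span 0.5), a replicate block and leaving out each library were alternatives. The code was tested on simulated counts. RefSeq (GRCm38.p6) gave promoters. Named genes were the 6 members, the 3 of smallest p in each list, and by correlation the 5 genes most like Fasn and the 2 most like each other member. Srebf1, Mlxipl and Nr1h3 were named after their values were seen. Members and lists were chosen with earlier results of these data known.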

Additional observations from a re-analysis of the deposited data

How the results depend on the processing

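Fasn stayed above 0 under all 15 alternatives and past the criteria in 10 of them. It missed them with the GC offset (0.36), with the replicate block and GC offset together (0.36) and without each insulin library; leaving out 1 library gave 0.50 to 0.93. With the GC offset the 1 member past the criteria was Usf2 (−0.57) in place of Fasn, with the block and GC offset 0 members passed, and leaving out 1 library left 0 to 1. Estimates changed sign for Prkdc (0.026 with the GC offset, 0.060 with the block and GC offset, −0.60 to 0.21 with 1 library left out), Usf2 (−0.49 to 0.28 with 1 library left out) and Xrcc6 (0.13 with library totals, −0.16 to 0.032 with 1 library left out). The number of genes past the criteria, 383, was 742 without the filter, by which more genes were tested, 213 with voom, and 99 to 1349 with 1 library left out, lowest without insulin replicate 1 and highest without vehicle replicate 1; the cause was not tested. The labels do not say that a replicate number marks a shared day or cage, and same-numbered libraries did not deviate together (r = −0.039, 0.069 and 0.017). Over all alternatives the genes past the criteria numbered 0 to 2 among the cofactors of USF1, the other promoter factors and the lipogenic enzymes, 0 to 3 among the genes upstream of DNA-PK, 0 to 1 among its end-joining partners and 0 among the E-box factors. With the replicate block 321 genes passed and Fasn was 0.79.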
